A study of Mus musculus with 12 samples.

Results

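The interferon response genes described here were 9 genes, chosen by name from the 12975 genes of the count table: the transcription factors Irf1, Irf7, Irf9 and Stat2, and the interferon-stimulated genes Ifit1, Ifit3, Isg15, Gbp2 and Bst2. All 9 were found. The libraries came from the muscularis externa of the small intestine (the circular and longitudinal muscle with the myenteric plexus between them) of PLPCreERT2 Rpl22HA mice on the B6J.129(Cg)-Rpl22tm1.1Psam/SjJ strain. All 6 mice had received 2 intraperitoneal injections of 100 µl tamoxifen at 15 mg/ml from the age of 10 to 12 weeks, and the tissue was taken 3 to 4 weeks after the first. The tamoxifen-dependent Cre of this line is directed to enteric glial cells (EGCs), so that ribosomes carry the HA tag in these cells and in any other cell in which the promoter of the Cre is active. T0 mice were naive (3 animals) and T3 mice were killed 3 h after intestinal manipulation, in which the small bowel is exteriorised through a laparotomy under ketamine and xylazine and rolled with a cotton swab (3 animals). No sham-operated group was analysed here, so anaesthesia, laparotomy and handling of the bowel cannot be told apart. Ribosomes were precipitated from 2 portions of the cleared homogenate of every animal, with anti-HA antibody (HA libraries) or with an isotype control IgG1 (IgG libraries), which gave 4 groups of 3 libraries.

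Interferons reach the cell through 3 kinds of receptor that signal by Janus kinases and STAT proteins. Type I and type III interferons assemble ISGF3, a complex that holds Stat2 and Irf9 and binds the interferon-stimulated response element (ISRE), whereas interferon gamma acts through the gamma-activated site (GAS). Irf1 is also a direct target of NF-kB, and several interferon-stimulated genes can be switched on by interferon regulatory factors without an interferon receptor. In the gut muscularis, both resident macrophages and EGCs are known to respond to interferons.

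HA libraries held 1221788 to 2870591 UMI counts and IgG libraries 88136 to 1289833, so depth differed with both antibody and time. The IgG T3 libraries held only 88136, 92022 and 248522 counts, and the 3 counts that a count of 0 allows were 34.04 CPM (counts scaled to a library total of 1e+06) in the shallowest library and 1.05 CPM in the deepest. This floor covers counting error only. At T0 all 8 markers of enteric glia were higher in the HA pull-down, and their summed level was 3622 to 4426 CPM in HA T0, 4416 to 5093 CPM in HA T3 and 173 to 226 CPM in IgG T0. These sums include Gfap, whose mean was 118 CPM in HA T0 and 1715 CPM in HA T3, and 5.47 CPM in IgG T0 and 118 CPM in IgG T3. Between T0 and T3 the sums are therefore not a measure of glial content alone. In IgG T3 the glial sum was 942, 869 and 217 CPM in animals 1, 3 and 4, so the sum stood above the IgG T0 range in the control pull-downs of animals 1 and 3. Of the 3 markers of interstitial cells of Cajal, 2 were likewise HA-enriched at T0. The 6 smooth muscle markers, at 39186 to 61437 CPM in sum, marked the IgG libraries as RNA of the muscle layer. Their sum was 14826 to 22784 CPM in HA T0 and 12174 to 14543 CPM in HA T3, above the glial sums. The HA libraries thus also held much RNA of the muscle layer. Fewer cells of a type and less RNA per cell cannot be told apart in such bulk libraries.

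The promoters are shown for the letters that interferon-activated factors are known to read. The genes were chosen as known interferon response genes, so these letters are no independent support for the choice. Their counts are given as a description. RefSeq promoters on GRCm38.p6 were matched for all 9 genes, and the 250 bases before each start were searched on both strands for the ISRE core GAAANNGAAA, the GAS motif TTCNNNGAA and the kB consensus of NF-kB. An ISRE core was found in 6 of 9 genes (Stat2, Ifit1, Ifit3, Isg15, Gbp2 and Bst2), against 3.04% of 27025 genes taken at their first listed start. A GAS motif was found in Irf1 and Bst2 (7.18% of genes), and a kB match also in Irf1 and Bst2 (3.75% of genes). The stretches below run 5′ to 3′ on the strand of the gene, with the matches in capitals.
Isg15, chr4:156200845-156200926, minus strand, 3 overlapping ISRE cores: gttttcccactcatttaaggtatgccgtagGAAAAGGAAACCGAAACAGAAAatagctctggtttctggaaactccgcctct
Ifit1, chr19:34640755-34640843, plus strand, 2 ISRE cores on the opposite strand: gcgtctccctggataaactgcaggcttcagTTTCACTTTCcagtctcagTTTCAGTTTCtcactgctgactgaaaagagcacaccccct
Ifit3, chr19:34583343-34583446, plus strand, 2 ISRE cores on the opposite strand: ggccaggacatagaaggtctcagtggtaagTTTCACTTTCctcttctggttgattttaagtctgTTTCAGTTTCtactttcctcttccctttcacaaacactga
Gbp2, chr3:142620594-142620623, plus strand, 1 ISRE core on the opposite strand: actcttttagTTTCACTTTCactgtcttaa
Stat2, chr10:128270248-128270315, plus strand, 1 ISRE core on the opposite strand: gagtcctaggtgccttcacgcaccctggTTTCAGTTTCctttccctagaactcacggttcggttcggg
Bst2, chr8:71537557-71537644, minus strand, a kB match, a GAS motif and 2 ISRE cores that overlap each other: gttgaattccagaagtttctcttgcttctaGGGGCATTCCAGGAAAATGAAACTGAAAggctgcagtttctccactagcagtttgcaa
Irf1, chr11:53769894-53770013, plus strand, a GAS motif and, near the start, a kB match: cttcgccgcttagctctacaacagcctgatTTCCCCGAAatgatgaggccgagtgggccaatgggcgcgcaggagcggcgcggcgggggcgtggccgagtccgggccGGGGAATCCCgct

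The ISRE cores began 222 bases before the start in Stat2, 156 and 122 bases before it in Ifit3, 130 and 124 in Bst2, 104 and 85 in Ifit1, 78, 72 and 66 in Isg15, and 59 in Gbp2, as the map of motif matches shows. Ifit1 and Ifit3 therefore share the layout of a pair of separate cores, while those of Isg15 and Bst2 run into each other. In Irf1 the GAS motif began 90 bases and the kB match 13 bases before the first listed start, and no match was found before its second listed start. None of the 3 motifs was found before the listed RefSeq start of Irf7 or before either listed RefSeq start of Irf9. Both searched stretches of Irf9 (chr14:55603735-55603984 and chr14:55604329-55604578) lay inside the gene as annotated in GENCODE vM21. The bases before the GENCODE start of Irf9 were therefore not searched. The searched stretch of Irf7 (chr7:141266425-141266674) ran partly into its GENCODE gene. In Gbp2 the core stood before the RefSeq start but inside the gene as annotated in GENCODE vM21, which begins at chr3:142620602. A match is a string of letters and not a shown binding site.

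**Figure D1:**
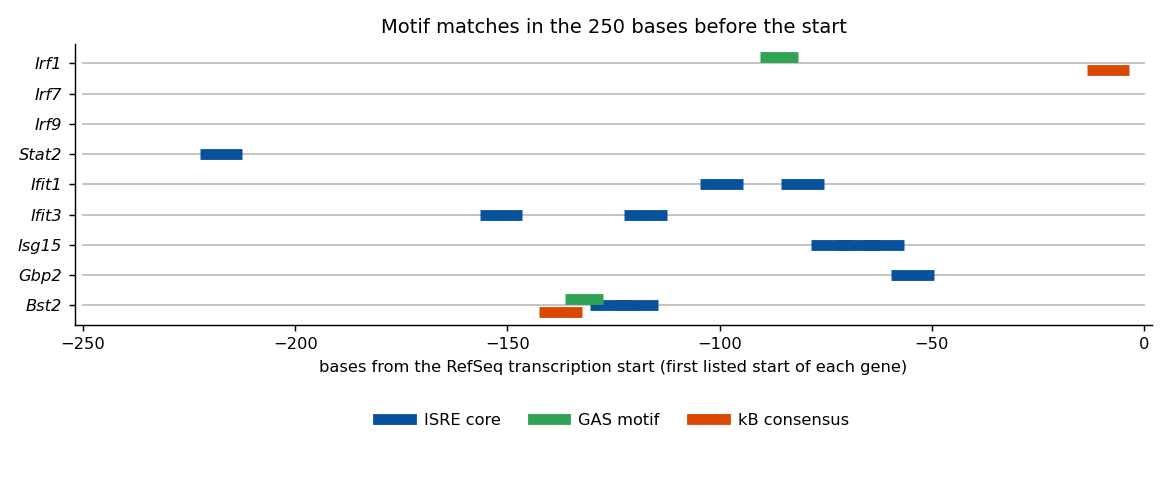
Matches of the ISRE core, the GAS motif and the kB consensus in the 250 bases before the first listed RefSeq start of each gene; the x axis gives bases from the start. ISRE cores (blue) stand in 6 of the 9 genes, and GAS (green) and kB (orange) matches in Irf1 and Bst2. The searched bases of Irf7 and Irf9 hold no match, and those of Irf9 lie inside its GENCODE gene.

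UMIs were counted near the 3′ end of each gene, in a window of 1000 bases before and 100 bases after that end, and the window limits some values. In the GENCODE vM21 annotation of mm10, Ifit3 (chr19:34583531-34588731, plus strand, 2 exons) shared 449 of the 951 runs of 50 bases in its last 1000 transcript bases (47.2%) with Ifit3b, so reads of the pair could be lost or split. Isg15 (chr4:156199424-156200818, minus strand, 2 exons) shared 28 of 707 such runs with AC151275.1. The window of Irf7 (chr7:141262706-141266481, minus strand) overlapped Phrf1 on the opposite strand, and whether strand was used when counting is not given in the sources used here. The windows of Irf1 (chr11:53770014-53778374, plus strand), Irf9 (chr14:55603571-55610030, plus strand), Stat2 (chr10:128270559-128292849, plus strand), Ifit1 (chr19:34640871-34650009, plus strand), Gbp2 (chr3:142620602-142638008, plus strand) and Bst2 (chr8:71534255-71537456, minus strand) overlapped no other gene, and their last 1000 bases shared no run of 50 bases with a transcript of another gene.

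To ask how the RNA of the HA pull-down, which also held RNA of the muscle layer, changed early after injury, HA T3 was compared with HA T0. All 9 genes were higher at T3 (9 of 9 tested, adjusted p under 0.05 by the edgeR quasi-likelihood test), with a median log2 fold change of 2.03 against -0.016 over all 9441 genes tested. In that comparison 18.7% of all genes were called higher and 15.1% lower. The rise was 7.89- to 8.65-fold for Isg15, Irf1 and Ifit1, 3.35- to 4.32-fold for Irf7, Gbp2 and Ifit3, 1.94-fold for Stat2, and 1.55- and 1.52-fold for Irf9 and Bst2. The HA T0 and HA T3 libraries overlapped for Irf9 and Bst2 and did not for the other members. How many of all genes were without overlap was not counted, so this only describes the libraries. When libraries were scaled by total counts in place of TMM, the median of all genes shifted by -0.27, the share of calls that were higher fell from 55.4% to 31.4%, all 9 genes still had a positive log2 fold change, and Irf9 (0.35, adjusted p = 0.245) and Bst2 (0.34, adjusted p = 0.125) no longer passed.

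**Figure D2:**
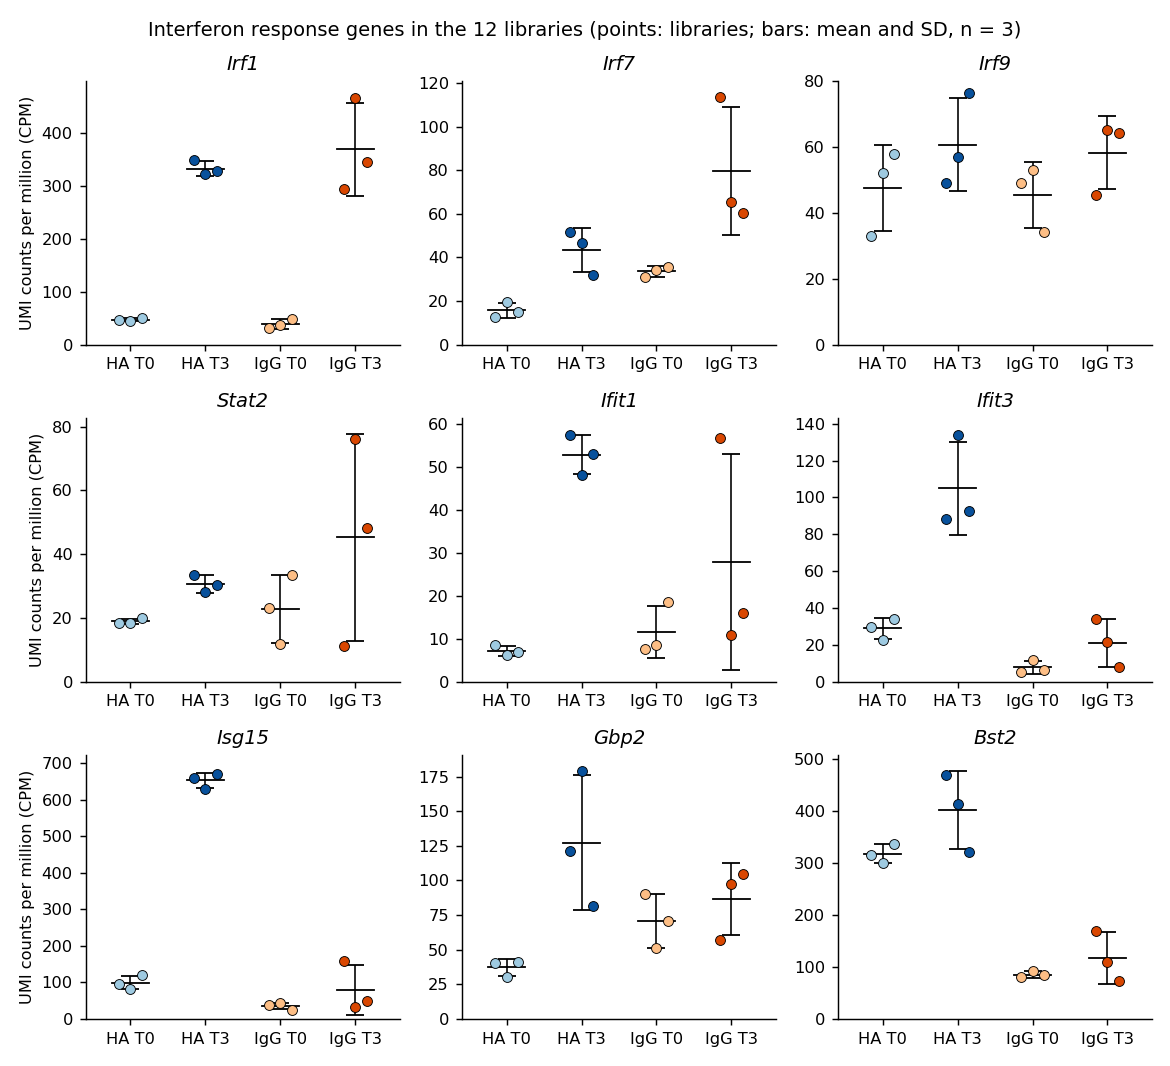
CPM of UMI counts (y axis, linear from 0, a separate scale for each gene) in the 12 libraries by group; points are libraries in the order of their animal numbers, and bars give the mean and SD of 3. Isg15 lies between 630 and 670 CPM in HA T3 and below 160 CPM in every other library, while Irf1 is high in both T3 groups.

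Irf1, a transcription factor induced by interferon gamma and by NF-kB, stood at 46.1, 45.3 and 50.5 CPM in HA T0 and at 348.7, 323.0 and 327.8 CPM in HA T3. It was at 30.9, 37.7 and 48.8 CPM in IgG T0 and at 295.0, 467.3 and 346.0 CPM in IgG T3. The level therefore followed time and not antibody: both T3 groups lay above both T0 groups, and HA and IgG overlapped at each time. The log2 fold change with time was 3.08 (SE 0.18, adjusted p = 6.44e-11) in HA and 3.16 (SE 0.33, adjusted p = 3.74e-05) in IgG. HA and IgG did not differ past the threshold at T0 (0.19, SE 0.26, adjusted p = 0.599) or at T3 (-0.05, SE 0.26, adjusted p = 0.923).

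Irf7, the factor that drives type I interferon genes, was lower in the HA than in the IgG pull-down of naive mice. It was at 12.7, 19.6 and 15.0 CPM in HA T0 against 30.9, 34.3 and 35.7 CPM in IgG T0, and at 51.6, 46.8 and 31.9 CPM in HA T3 against 113.5, 65.2 and 60.4 CPM in IgG T3. In order of mean level, the groups ran from HA T0 (15.7 ± 3.50 CPM, SD, n = 3) through IgG T0 (33.6 ± 2.44 CPM) and HA T3 (43.4 ± 10.2 CPM) to IgG T3 (79.7 ± 29.4 CPM), and IgG T0 and HA T3, the middle pair, overlapped. The log2 fold change with time was 1.74 in HA (SE 0.27, adjusted p = 4.02e-05). In IgG it was 1.14 (SE 0.42, adjusted p = 0.133), without overlap of the groups. The log2 difference between HA and IgG was -1.15 at T0 (SE 0.30, adjusted p = 0.0105). It no longer passed without HA T0 animal 1 (adjusted p = 0.0533) or IgG T0 animal 4 (adjusted p = 0.0549). At T3 it was -0.70 (SE 0.39, adjusted p = 0.217).

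Irf9 and Stat2 are members of ISGF3, Irf9 giving the DNA-binding contact and Stat2 the activation domain. Stat2 stood at 18.4, 18.4 and 19.9 CPM in HA T0 and at 33.6, 28.1 and 30.4 CPM in HA T3, a log2 fold change of 0.96 (SE 0.25, adjusted p = 0.00553). Its IgG libraries spread more widely, from 12.0 to 33.3 CPM at T0 and from 11.3 to 76.1 CPM at T3, where the counts behind them were 1 to 12. Irf9 stood at 33.0, 52.0 and 57.8 CPM in HA T0 and at 49.1, 56.8 and 76.3 CPM in HA T3, and its HA groups overlapped. The log2 fold change of Irf9 was 0.63 (SE 0.23, adjusted p = 0.0439), and it passed in 6 of 13 alternative fits (adjusted p from 0.00991 to 0.258). Without HA T3 animal 4 its adjusted p was 0.258, without HA T0 animal 1 it was 0.204, without HA T0 animal 2 it was 0.0533 and without HA T3 animal 3 it was 0.0509. In IgG the changes with time did not pass (Irf9 0.42, adjusted p = 0.606; Stat2 0.92, adjusted p = 0.393), and neither gene differed between HA and IgG past the threshold at T0 or T3.

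Isg15, a ubiquitin-like protein that is joined to other proteins in interferon-treated cells, rose in the HA pull-down far above its level in the other 3 groups. It stood at 95.6, 82.7 and 119.8 CPM in HA T0 and at 660.5, 629.9 and 669.6 CPM in HA T3. In the control pull-downs it was at 38.6, 42.9 and 24.8 CPM at T0 and at 158.8, 32.6 and 48.3 CPM at T3. The 3 HA T3 libraries lay close together, while in IgG T3 animal 1 was the highest, and the 3 values rested on 14, 3 and 12 counts. The log2 fold change with time was 2.98 in HA (SE 0.18, adjusted p = 1.13e-10) and 1.08 in IgG (SE 0.53, adjusted p = 0.263). Isg15 exceeded its IgG level in HA at T0 (log2 1.52, SE 0.27, adjusted p = 0.000808) and at T3 (log2 3.26, SE 0.39, adjusted p = 1.97e-05).

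Ifit1 and Ifit3 are neighbouring genes on chromosome 19, of a family of interferon-induced proteins that binds foreign RNA. Ifit1 stood at 8.45, 6.15 and 6.97 CPM in HA T0 and at 57.3, 48.1 and 52.9 CPM in HA T3, a log2 fold change of 3.11 (SE 0.27, adjusted p = 1.43e-08). Its IgG values were 7.73, 8.57 and 18.6 CPM at T0 and 56.7, 10.9 and 16.1 CPM at T3, where they rested on 5, 1 and 4 counts. Ifit3 stood at 29.9, 22.9 and 34.1 CPM in HA T0 and at 88.4, 133.7 and 92.6 CPM in HA T3, a log2 fold change of 2.11 (SE 0.22, adjusted p = 3.16e-07). Its IgG values were 5.15, 12.0 and 6.20 CPM at T0, from 2, 7 and 8 counts, and 34.0, 21.7 and 8.05 CPM at T3, from 3, 2 and 2 counts. Neither gene passed the filter on low counts for IgG T3 against IgG T0, so its change with time in the control pull-down was not tested.

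The 2 genes differed in where they stood before injury. Ifit3 was already HA-enriched in naive mice (log2 1.89, SE 0.39, adjusted p = 0.00243), whereas the log2 difference of Ifit1 was -0.86 (SE 0.44, adjusted p = 0.156) and its groups overlapped. At T3, the 427 counts of Ifit3 in HA against 7 in IgG gave a ratio of 6.53 per library total, with a 95% counting interval of 3.14 to 16.4 (adjusted p of the fit 0.000889). For Ifit1, 210 counts in HA against 10 in IgG gave a ratio of 2.25 (1.20 to 4.76) at T3. The fitted log2 difference of Ifit1 at T3 was 1.21 (SE 0.51, adjusted p = 0.100), and without IgG T3 animal 1 it was 1.99 (adjusted p = 0.0186). It passed in 4 of 13 alternative fits (adjusted p from 0.0186 to 0.376), the others being those without the filter (1.44, adjusted p = 0.0363), with at least 5 counts in 1 library (1.38, adjusted p = 0.0459) and of all 12 libraries (1.47, adjusted p = 0.0351).

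Gbp2 and Bst2 showed opposite sides of the pull-down. Gbp2, a large GTPase that is strongly induced by interferon gamma, stood at 40.3, 30.2 and 41.1 CPM in HA T0, below all 3 IgG T0 libraries at 90.2, 51.4 and 70.6 CPM. In HA T3 it was at 121.1, 179.2 and 81.8 CPM and in IgG T3 at 56.7, 97.8 and 104.6 CPM, and these groups overlapped. The log2 fold change with time was 2.03 in HA (SE 0.25, adjusted p = 8.86e-06) and 0.34 in IgG (SE 0.40, adjusted p = 0.669). The log2 difference between HA and IgG was -0.93 at T0 (SE 0.27, adjusted p = 0.0174) and 0.57 at T3 (SE 0.37, adjusted p = 0.295). The T0 difference did not pass without IgG T0 animal 1 (adjusted p = 0.0510), HA T0 animal 2 (0.0705) or IgG T0 animal 4 (0.0596).

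Bst2 (tetherin), a membrane protein that holds budding enveloped viruses at the cell surface, was HA-enriched at both times. It stood at 315.2, 301.2 and 337.6 CPM in HA T0 and at 470.6, 413.9 and 321.6 CPM in HA T3, against 79.9, 92.6 and 83.7 CPM in IgG T0 and 170.2, 108.7 and 72.4 CPM in IgG T3. All 6 HA libraries lay above all 6 IgG libraries. The log2 difference between HA and IgG was 1.87 at T0 (SE 0.19, adjusted p = 7.10e-06) and 1.98 at T3 (SE 0.33, adjusted p = 0.000314). The log2 fold change with time in HA was 0.60 (SE 0.17, adjusted p = 0.0113), with animal 4 at T3 inside the T0 range, and without HA T3 animal 1 it did not pass (0.50, adjusted p = 0.0612). In IgG it was 0.35 (SE 0.37, adjusted p = 0.637).

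In the control pull-down as a whole, 7 of the 9 genes could be tested for a change with time, and 1 of them, Irf1, was called higher, while 4.43% of the 5219 genes tested were called higher and 1.03% lower. All 7 log2 fold changes were positive, with a median of 0.92 against -0.022 over all genes tested. At T0, Ifit3, Isg15 and Bst2 were called HA-enriched and Irf7 and Gbp2 HA-depleted, where 16.0% of 9823 genes were called higher and 14.4% lower. At T3, the same 3 genes were called higher and none of the 9 lower, with 11.8% and 10.2% of 7200 genes called in each direction.

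**Figure D3:**
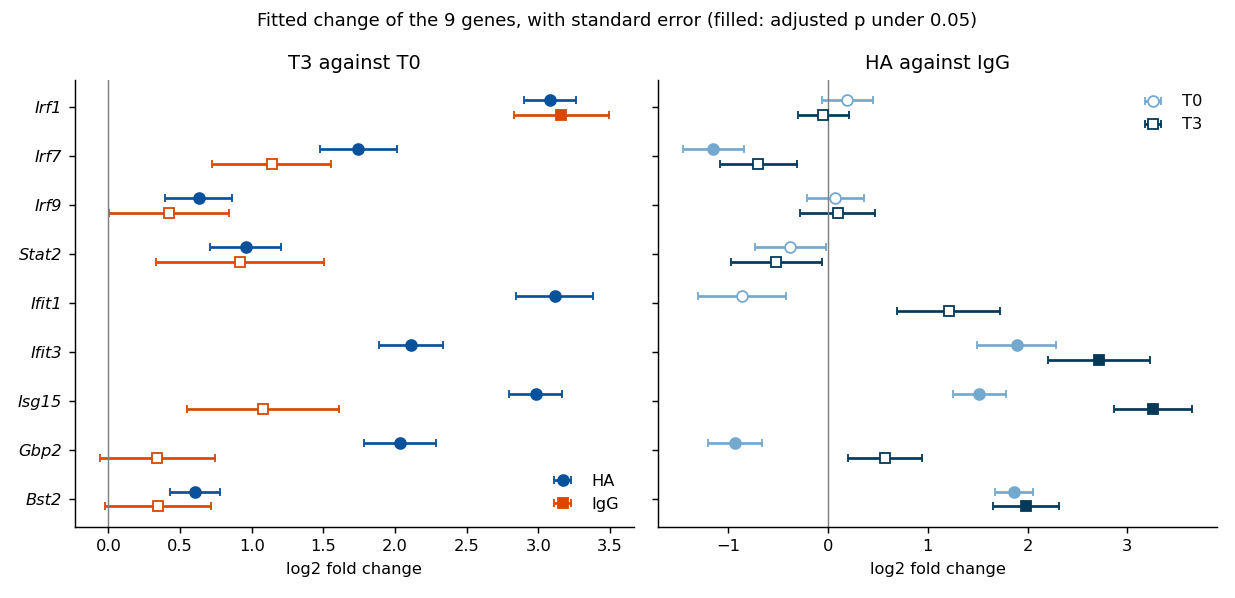
Fitted log2 fold changes (x axis) with their standard errors for T3 against T0 in HA and IgG libraries (left) and for HA against IgG at T0 and T3 (right); filled symbols passed an adjusted p of 0.05, Ifit1 and Ifit3 were not tested for time in IgG, and the T3 value of Ifit3 rests on 7 IgG counts. In HA every gene lies to the right of 0, and in IgG the filled symbol is that of Irf1 alone.

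An interaction fitted across all 12 libraries asked if a gene changed more with time in 1 pull-down than in the other. None of the 9 genes passed in the main edgeR fit, which did not pair the HA and IgG libraries of an animal. In that fit 34 of 10314 genes (0.330%) were called in either direction and 1082 had an unadjusted p under 0.05. The largest differences were those of Ifit1 (log2 2.33, SE 0.65, adjusted p = 0.145), Isg15 (log2 2.00, SE 0.47, adjusted p = 0.0707) and Gbp2 (log2 1.75, SE 0.46, adjusted p = 0.115), the 3 members with an unadjusted p under the threshold; the value of Ifit1 rests on 10 counts in IgG T3. When HA and IgG libraries were paired by animal, with the animal as a block in the fit, 156 genes were called, among them Isg15 (log2 2.03, adjusted p = 0.00454) and Gbp2 (log2 1.63, adjusted p = 0.0235). Isg15 also passed with the DESeq2 Wald test (adjusted p = 0.00983). It passed as well without IgG T3 animal 1 (log2 2.66, adjusted p = 0.00863), the control library with 14 of the 29 Isg15 counts of its group. That library had the highest marker sums of IgG T3 for glia (942 CPM) and for neutrophils and monocytes (250 CPM). IgG T3 animal 3, with a glial sum of 869 CPM, held 3 Isg15 counts. The part of these cells was not tested. With total counts as scaling the adjusted p of Isg15 was 0.213, the highest over its 18 alternatives. For Irf1 the interaction was near 0 (0.02, SE 0.35, adjusted p = 0.997), and its sign changed with the scaling. The interaction was also small for Stat2 (0.11) and Irf9 (0.27), whose signs turned with total counts, and for Bst2 (0.38), while it was 0.70 for Irf7 and 1.06 for Ifit3, none past the threshold.

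The pathway around these genes was described from lists written from general knowledge. None of the 11 interferon ligand genes looked for, type I, II and III, was among the genes analysed here. All 6 receptor chains were, and in HA 1 rose and 2 fell with time. With 6 genes these counts say little beside the 18.7% of all genes called higher and 15.1% called lower. Ifnlr1, the specific chain of the type III receptor, went from 5.93 ± 0.816 CPM to 18.0 ± 3.69 CPM (SD, n = 3; log2 1.84, adjusted p = 0.000271), and Il10rb, the chain that this receptor shares with that of interleukin-10, fell from 62.1 ± 13.2 to 24.2 ± 8.18 CPM (log2 -1.09, adjusted p = 0.00300). Ifngr1, the ligand-binding chain for interferon gamma, fell (log2 -0.59, adjusted p = 0.0384). Ifnar1 (0.11, adjusted p = 0.839), Ifnar2 (-0.23, adjusted p = 0.433) and Ifngr2 (0.28, adjusted p = 0.316) did not pass. At T0, Ifngr1 (log2 2.05), Ifnar2 (1.15) and Il10rb (0.97) were called HA-enriched. At T3 Ifngr1 was called higher in HA (log2 2.18, adjusted p = 0.00284) and Ifngr2, the signalling partner of Ifngr1, lower (log2 -0.92, adjusted p = 0.0494), while Ifnar2 (1.30, adjusted p = 0.0604) and Il10rb (-0.44, adjusted p = 0.574) did not pass.

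Of 5 receptor kinases and partner STATs, Stat3 rose in HA (log2 2.79, adjusted p = 1.66e-10) and in IgG (log2 2.28, adjusted p = 0.00104), and Jak1 rose in HA (log2 0.71, adjusted p = 0.00689). Among 9 tested sensors of nucleic acid and their adaptors, 3 rose and 1 fell in HA, which with 9 genes also says little beside the shares over all genes. The largest rise was that of Zbp1, a sensor of Z-form nucleic acid, from 13.1 ± 2.63 to 111.6 ± 31.6 CPM (log2 3.33, adjusted p = 2.26e-09); it was also higher in HA than in IgG at T3 (455 against 6 counts, a ratio of 8.12 with a 95% counting interval of 3.70 to 22.3). Myd88 (log2 1.30), the adaptor of most Toll-like receptors, and Tmem173 (log2 1.28), which encodes STING, rose, and Mavs, the adaptor of the RIG-I-like receptors, fell (log2 -1.26, adjusted p = 0.00200). Of the other interferon regulatory factors, 1 of 4 tested rose, Irf8 (log2 1.49, adjusted p = 0.00200), again too few genes to set beside the share over all genes.

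Among 21 other tested targets of ISGF3, 10 rose in HA and none fell, with a median of 0.69, and 11 did not pass. Over all genes tested in HA, 18.7% were called higher and 15.1% lower. Rsad2 (viperin), which blocks viral replication, went from 3.36 ± 1.71 to 34.0 ± 8.25 CPM (log2 3.63, adjusted p = 2.87e-07). In IgG its change with time was not tested. Its 9 counts in IgG T3 (12.1 ± 20.9 CPM) against 7 in IgG T0 gave a ratio of 6.78 per library total (95% counting interval 2.25 to 21.4). All 9 IgG T3 counts came from animal 4, so this interval, of counts pooled over animals, does not show a rise of the group. At T3 the ratio of HA to IgG for Rsad2 was 1.59 (0.815 to 3.56), and the fitted log2 difference did not pass (0.83, adjusted p = 0.386). These intervals cover counting error only. Ifitm3, which hinders entry of viruses, went from 564.3 ± 107.5 to 1032.7 ± 105.5 CPM (log2 1.14, adjusted p = 7.41e-05). Ifit3b (log2 1.88, adjusted p = 0.000179), Trim25 (log2 1.20), Parp14 (log2 1.06) and Ifi35 (log2 0.96) also rose. The list did not move as a block: Ifit2, a neighbour of Ifit1 and Ifit3, stood at 17.7 ± 5.59 and 13.9 ± 4.61 CPM (log2 -0.09, SE 0.33, adjusted p = 0.850), and Oasl2 (-0.32, adjusted p = 0.492) and Cmpk2 (-0.30, adjusted p = 0.554) did not pass either. In IgG, 0 of 11 tested genes of the list were called with time by edgeR, with a median of -0.18, and 1 had an unadjusted p under 0.05. Over all genes tested in IgG, 4.43% were called higher and 21.2% had an unadjusted p under 0.05, so a count of 0 among 11 says little about the list.

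All 8 tested genes of the interferon gamma-induced GTPases and chemokines rose in HA, with a median of 1.69. Beside the HA counts given here stand 18.7% of all genes called higher and 15.1% called lower. Cxcl10, a chemokine for T cells and monocytes, went from 54.7 ± 22.6 to 1006.6 ± 401.5 CPM in HA (log2 4.45, adjusted p = 0.000171) and from 6.72 ± 2.50 to 190.1 ± 86.6 CPM in IgG (log2 4.81, adjusted p = 3.74e-05). Irgm1 (log2 2.36), Gbp5 (log2 2.28), Iigp1 (log2 2.07), Igtp (log2 1.32) and Gbp3 (log2 1.00), GTPases that act on pathogen vacuoles, rose as well, and Gbp5 also in IgG (log2 2.47, adjusted p = 0.0124). Of 12 genes of antigen presentation by MHC class I, 5 rose in HA, namely the peptide transporter genes Tap1 (log2 1.62) and Tap2 (log2 0.81) and the immunoproteasome subunits Psmb8 (log2 1.06), Psmb10 (log2 0.81) and Psmb9 (log2 0.73). The heavy chains H2-K1 (0.25, adjusted p = 0.344) and H2-D1 (0.44, adjusted p = 0.0972) did not pass. Nor did the 2 genes of the list with a negative value, the light chain gene B2m, at 1213 ± 273 and 557 ± 278 CPM (log2 -0.85, adjusted p = 0.0783), and the peptidase gene Erap1 (-0.73, adjusted p = 0.0596). Among 6 tested negative regulators, Socs3 (log2 4.78), Ptpn2 (log2 2.86) and Socs1 (log2 2.24), which restrain Janus kinases and STATs, rose in HA. Socs3 rose in the control pull-down as well, from a mean of 16.9 to 594.8 CPM (log2 5.08, adjusted p = 5.45e-06), while Socs1 and Ptpn2 were not tested there.

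The 9 NF-kB primary response genes all rose in HA (median log2 3.39) and all rose in IgG (median 3.67). Over all genes tested, 18.7% were called higher in HA and 4.43% in IgG. Nfkbia, the inhibitor that NF-kB itself induces, changed by log2 4.76 in HA and 3.67 in IgG, and the adhesion molecule gene Icam1 by 3.39 and 3.35. Birc3 (3.09 and 3.82), Tnfaip3 (3.70 and 4.84), Relb (2.53 and 2.23) and Nfkb2 (2.48 and 2.71) also rose in both pull-downs. With total counts as scaling, the calls in HA were 1 higher and 1 lower among kinases and STATs, 3 and 2 among sensors, 8 and 1 among the ISGF3 targets, 6 and 0 among the interferon gamma-induced genes and 4 and 2 in the MHC class I list, while the other lists kept their counts in each direction. In the unpaired edgeR fit, no gene of these lists was called in the interaction. Those with an unadjusted p under 0.05 were 3 of 23 ISGF3 targets, 3 of 12 MHC class I genes, 2 of 7 negative regulators, 1 of 8 sensors and 1 of 9 NF-kB genes. Over all genes of the interaction that share was 10.5%, so with so few genes these counts say little about the lists. With the animal as a block, which was read for the lists after the data had been seen, 2 of 84 tested list genes were called, Ifi35 (log2 1.62, adjusted p = 0.0235) and Nfkbia (log2 1.17, adjusted p = 0.0431), against 1.51% of all genes.

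**Figure D4:**
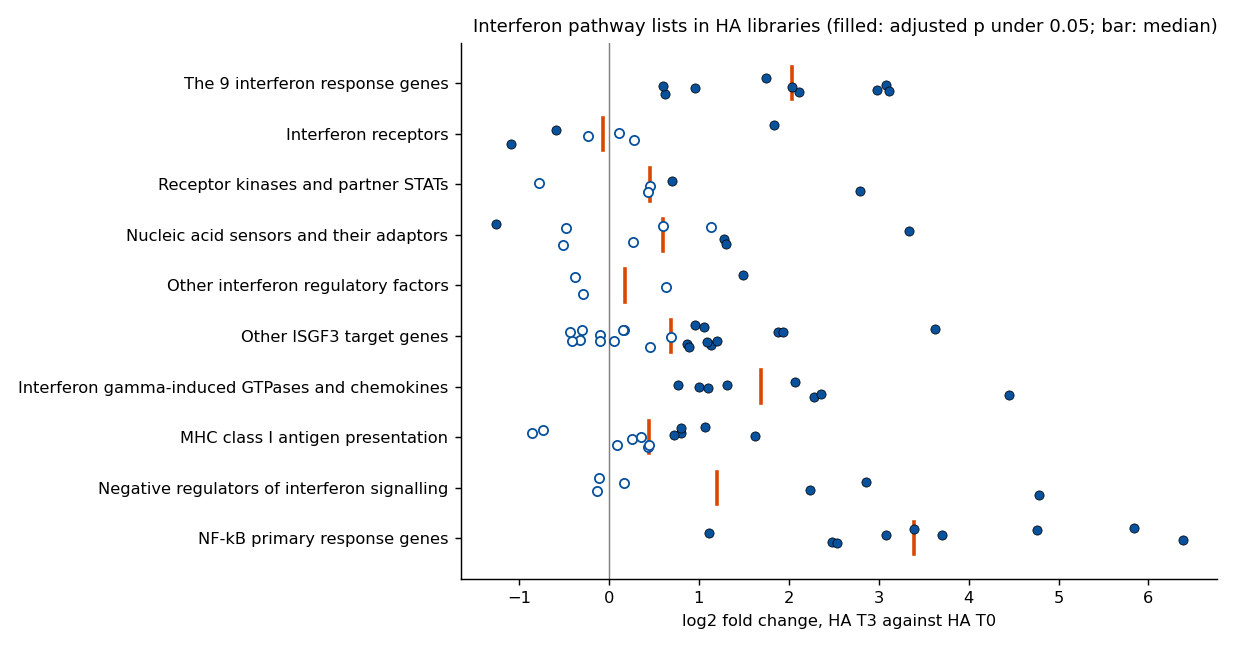
Log2 fold change of HA T3 against HA T0 (x axis) for the 9 interferon response genes and the tested genes of 9 pathway lists; filled points passed an adjusted p of 0.05 and orange bars are list medians. The interferon gamma-induced genes and the NF-kB list lie entirely to the right of 0, and the ISGF3 targets are spread on both sides, with every filled point to the right.

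Markers of other cell types were read beside the rise in HA. There 18.7% of all genes tested were called higher with time and 15.1% lower. The summed level of 12 macrophage markers was 481 to 843 CPM in HA T0 and 219 to 388 CPM in HA T3 (4 of 8 tested lower, none higher). It was 826 to 1181 CPM in IgG T0 and 674 to 817 CPM in IgG T3. Of the 8 neutrophil and monocyte markers, 4 were in the table, and their sum was 6.27 to 16.2 CPM in HA T0 and 22.1 to 116 CPM in HA T3, with S100a9 called higher. The highest of these sums, 116 CPM, was that of HA T3 animal 1. Of the markers of T and NK cells 3 of 8 were in the table, at 0 to 0.818 CPM in sum in HA T3, and of those of B cells and plasmacytoid dendritic cells 1 of 6, at 0 to 1.34 CPM. Of 6 tested markers of enteric neurons 5 had a positive value in HA, with a median of 0.52, and 2 rose. With 6 genes this says little beside the share over all genes. The 2 were Tubb3, a neuronal tubulin (log2 1.11, adjusted p = 0.00989), and Uchl1 (log2 0.56, adjusted p = 0.0405). The summed level of the neuronal markers was 806 to 975 CPM in HA T0 and 919 to 1602 CPM in HA T3, so the groups overlapped. In IgG none of the 6 was called with time by edgeR, and none had an unadjusted p under 0.05. Among 3 tested endothelial markers Cldn5, a tight junction protein, rose (log2 2.42, adjusted p = 2.66e-05), while the sum of all 8 was 32.6 to 51.4 CPM in HA T0 and 42.6 to 47.5 CPM in HA T3. Of the 8 glial markers 2 rose in HA, Gfap (log2 4.12) and S100b (log2 0.70), and 1 fell, Gpr37l1 (log2 -0.87). Markers that fell in HA were 2 of 6 of smooth muscle, 3 of 5 of fibroblasts, 4 of 4 of mesothelium, 1 of 4 of epithelium and 2 of 3 of interstitial cells of Cajal, namely Kit (log2 -1.11) and Ano1 (log2 -0.73), and none of these lists held a marker that rose. With total counts as scaling, 1 neuronal and 1 glial marker rose, and those that fell were 6 of macrophages, 4 of smooth muscle and 2 of epithelium. The part of any of these cells in the changes was not tested.

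The genes whose levels ran most like each member over the 12 libraries, by Pearson correlation of log2 CPM among 10305 genes, are given as a description, because the libraries share 4 group means. For Irf1 they were Ppp1r15a, Gadd45b (both r = 0.99) and Csrnp1 (r = 0.99), immediate early and stress response genes. For Bst2 they were Sfrp1, Prnp and Endod1 (all r = 0.99), and for Isg15 Fam107b (r = 0.97), Zbp1 (r = 0.97) and Ubqln1 (r = 0.96). For Ifit1 the closest was Irg1 (r = 0.95), for Ifit3 Arpc1b (r = 0.96), for Irf7 Nfkbiz (r = 0.94), for Stat2 D8Ertd82e (r = 0.91), for Gbp2 Creb3l1 (r = 0.91) and for Irf9 Dazap1 (r = 0.86).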

How the data were processed

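RNA was measured in 12 ribosome pull-down libraries of 6 mice with a bulk form of MARS-seq, which tags the 3′ ends of transcripts with unique molecular identifiers (UMIs). Libraries were pooled by qPCR cycle before amplification, and which shared a pool is not given in the sources used here. Per the submitters' processing notes, the authors used cutadapt, STAR 2.4.2a, mm10, HTSeq and DESeq2 1.26.0. The deposited counts are UMIs per gene without normalisation, from uniquely mapped reads in a window of 1000 bases upstream to 100 bases downstream of each 3′ end. Uniquely mapped reads undercount near-identical genes. The series table and the single files differed in 0 values. Of 12975 genes, 189 had no count of 5 or more.

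Tests of counts used edgeR 4.0.16 under R 4.3.3 (quasi-likelihood F-test, robust, TMM, filterByExpr), with Benjamini-Hochberg adjustment over all genes of a comparison and a threshold of 0.05. Each comparison of 2 groups used its 6 libraries, and the interaction used all 12. The standard error (SE) was derived from the F statistic. The code was tested on simulated data. CPM was scaled to the library total. Totals ranged 32.6-fold.

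HA and IgG libraries of an animal came from 1 split homogenate. Their deviations from the group means correlated at 0.268, 0.269 and 0.273 at T0 and 0.162, 0.153 and 0.0886 at T3, against -0.19 to 0.0079 for other pairs, so the animal was used as a block in an alternative fit. The alternatives were scaling by RLE or by total counts, leaving out the filter, a minimum of 5 counts in 1 library, DESeq2 1.42.0, a fit of all 12 libraries, the block and leaving out each library.

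The 9 genes, the lists and the tests were chosen with earlier results of these data known. Beyond the 9 genes, genes past the threshold in HA with time were named up to 6 a list by smallest p, all receptors were named, and other genes of a list were named after their values were seen. Promoters are from RefSeq on GRCm38.p6, and gene positions from GENCODE vM21. All genes were tested, but only the 9 and their pathway are reported. Some genes of the lists are not reported here singly and remain in the counts.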

Additional observations from a re-analysis of the deposited data

How the results depend on the processing

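Of the 9 genes, Irf1, Irf7, Stat2, Ifit1, Ifit3, Isg15 and Gbp2 passed in HA T3 against HA T0 under all 13 alternatives, Bst2 under 11 and Irf9 under 6. The number of the 9 genes called in HA with time was 7 with total counts. At T0 against IgG, 3 to 5 of the 9 were called when a library was left out, with 3 without IgG T0 animal 4, where Irf7 and Gbp2 were lost. At T3, 4 were called in place of 3 without the filter, with at least 5 counts, in the fit of all 12 libraries and without IgG T3 animal 1, the added gene being Ifit1. In the interaction, 1 of the 9 was called without the filter, with at least 5 counts and with DESeq2, 2 with the replicate block by animal, and 0 to 1 when a library was left out. The replicate block by animal changed no other call of the 9 genes. Genes called in IgG T3 against IgG T0 were 285, and 519 without the filter, 704 in the fit of all 12 libraries and 167 to 333 with a library left out. Genes called in HA against IgG at T3 were 1578, and 849 to 1977 with a library left out. Genes called in the interaction were 34, and 20 with RLE, 8 with total counts, 80 with DESeq2, 156 with the block and 5 to 95 with a library left out.

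Signs turned only for values that had not passed, the largest being Stat2 in HA against IgG at T0, -0.38, which was 0.16 without IgG T0 animal 4. In HA against IgG at T0, leaving out a library gave Irf9 -0.12 to 0.26 and Stat2 -0.66 to 0.16. At T3, Irf1 was 0.20 without the filter, 0.14 with at least 5 counts, 0.23 in the fit of all 12 libraries and -0.11 to 0.20 with a library left out, and Irf9 was -0.12 to 0.40. In the interaction, Irf1 was -0.15 with RLE, -0.36 with total counts and -0.12 with DESeq2, and -0.27 to 0.12 with a library left out; Stat2 was -0.042 with RLE, -0.24 with total counts and -0.48 to 0.37 with a library left out; and Irf9 was -0.090 with total counts. The cause was not tested.

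Across time the label numbers 1 and 4 mark different animals, and a block by these numbers gave 3429 calls against 3187 in HA and 287 against 285 in IgG. Deviations of libraries with the same number correlated at 0.157 and 0.0111 in HA and at 0.169 and 0.0116 in IgG. The IgG T3 libraries, with 3 counts worth up to 34.04 CPM, limit Ifit1 and Ifit3 most.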
